A study of Mus musculus with 6 samples.

Results

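Of 9 aquaporins described here in mouse enterospheres, 1 passed the test when the spheres were moved from proliferation to differentiation conditions. This was Aqp1, whose array value was 10.2-fold higher in differentiation, while the other 8 differed by at most 0.35 on the log2 scale in either direction and did not pass at an adjusted p under 0.05. Of these 8, Aqp3 had an unadjusted p under 0.05, and 5 passed when arrays were weighted by quality. In that setting 7315 transcript clusters of the array passed as higher and 5406 as lower, against 693 and 766 without weights. The members were the genes annotated with exactly the symbols Aqp1, Aqp2, Aqp3, Aqp4, Aqp5, Aqp7, Aqp8, Aqp9 or Aqp11, 9 of the 19938 genes that had a transcript cluster of their own on the array. Where a gene had several clusters, the cluster was to be chosen by its mean over all 6 arrays. Each of the 9 members had 1 cluster, so this choice removed nothing. The family itself was picked with the increase of Aqp1 already known, and its p-value is therefore a description and no independent support.

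Enterospheres float freely in culture and form from cells of the gut muscle of newborn C57BL/6 mice, taken apart by enzymes. Neural progenitors of the enteric nervous system grow in them together with other cells of that tissue. Total RNA of 6 samples was hybridised, 1 array per sample, with 3 samples in differentiation and 3 in proliferation. The differentiation spheres had proliferated for 9 days and were then kept for 2 days in a medium with N2 supplement and ascorbic acid-2-phosphate but without the growth factors EGF and FGF. The proliferation spheres stayed for all 11 days in medium with N2 supplement and daily EGF (10 ng/mL per the labels, more per the study's methods) and FGF (20 ng/mL). The labels list B27 supplement as part of the proliferation medium alone, whereas the methods state that it was given a single time, ahead of seeding and thus to the cells of both groups. The loss of EGF and FGF, and of B27 if the labels hold, cannot be told apart from added ascorbic acid-2-phosphate in this design. The labels give 3 pooled mice per sample, whereas the methods of the study describe independent experiments with fewer pups of 1 litter each and other lengths of the first phases of culture. Whether replicates of a group came from separate cultures cannot be read from the labels, so the p-values measure the spread between these samples, which may be technical. Arrays of 1 group correlated at 0.988 to 0.995 over all clusters, and arrays of different groups at 0.983 to 0.989.

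Aquaporins are membrane proteins of the MIP (major intrinsic protein) family whose pores let water cross cell membranes along osmotic gradients. Some members, the aquaglyceroporins, also pass glycerol and other small solutes, and others sit in membranes inside the cell. They are best known from epithelia that secrete or absorb water, from small vessels, from red blood cells and from the glia of the brain. Here the members were 5 water channels (Aqp1, Aqp2, Aqp4, Aqp5 and Aqp8), 3 aquaglyceroporins (Aqp3, Aqp7 and Aqp9) and the intracellular Aqp11.

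Aqp1 is a water channel of red blood cells, of the endothelium of many vessels, of the kidney proximal tubule and of the choroid plexus. Its log2 values were 9.64, 9.50 and 10.11 on the differentiation arrays, against 6.41, 6.36 and 6.44 on the proliferation arrays. Every differentiation array lay above every proliferation array, and the lowest of the one group was 3.06 above the highest of the other. The means were 9.75 ± 0.32 in differentiation and 6.40 ± 0.04 in proliferation (SD, n = 3 arrays each). The proliferation values lay close to 6.15, the median of the means of all clusters, and no value here shows whether the probes were above background in proliferation, so that the fold may be understated. The difference of 3.35 on the log2 scale (SE 0.16, 95% interval 2.97 to 3.72) corresponds to 10.2-fold, with an interval of 7.82- to 13.2-fold, and had an adjusted p of 0.00107 in limma, a linear model fitted across all clusters. It was the third largest increase among the 19938 genes. In all 15 alternative ways of processing the values, the difference stayed between 3.17 and 3.47 and past the threshold. RNA was measured in whole spheres, so that more cells with Aqp1 and more Aqp1 RNA per cell cannot be told apart.

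The array value of Aqp1 varied more within differentiation than within proliferation. The differentiation arrays spanned 0.61 on the log2 scale, with replicate 3 the highest, and the proliferation arrays spanned 0.07, an SD 8.65 times smaller. Of all genes, 2.11% had an SD in differentiation at least as large as that of Aqp1, and 9.14% had an SD in proliferation at most as large. The spread in differentiation was small beside the gap between the groups. As the proliferation values lay close to the median cluster mean, signal near background may have narrowed their spread, which was not tested.

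**Figure D1:**
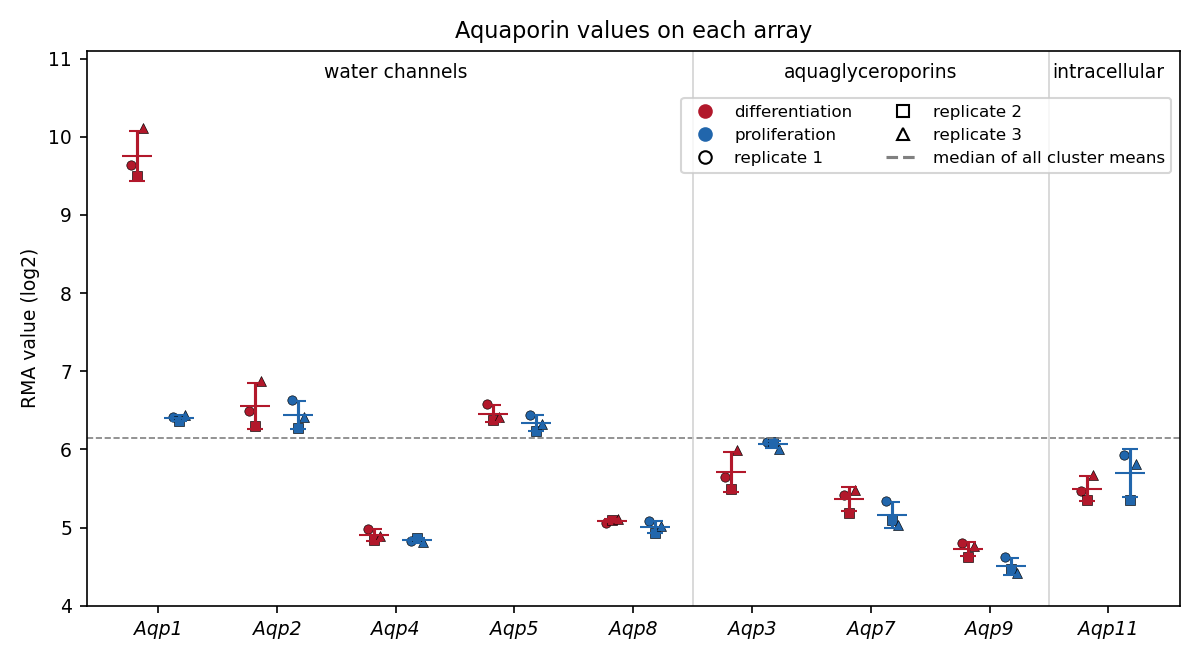
Deposited log2 value (vertical axis) of each aquaporin on every array, with differentiation in red to the left of proliferation in blue, marker shapes for the replicate numbers, horizontal bars for group means and whiskers for the SD of 3 arrays. Aqp1 lies at 9.50 to 10.11 in differentiation and at 6.36 to 6.44 in proliferation, while the values of the other 8 lie between 4.42 and 6.88 and overlap or nearly touch.

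The sequence just upstream of Aqp1 is shown because Aqp1 is the member that changed. The 250 bases before its annotated start, from RefSeq on build GRCm38.p6, lie on the plus strand at chr6:55336049-55336298, and capitals mark the matches to the motifs searched.
Aqp1: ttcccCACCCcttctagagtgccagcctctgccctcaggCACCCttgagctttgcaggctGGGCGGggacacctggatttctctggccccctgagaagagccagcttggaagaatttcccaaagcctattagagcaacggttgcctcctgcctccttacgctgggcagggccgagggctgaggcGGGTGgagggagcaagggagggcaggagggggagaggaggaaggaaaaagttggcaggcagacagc
GC content was 62.0% in this window, against a median of 52.4% over all annotated promoters. On both strands, 5 motifs were searched, and their matches did not overlap here. The CACCC box (CACCC, or GGGTG on the other strand), the element bound by Krüppel-like factors, had 3 matches, which begin at positions -245, -211 and -66 from the start. The GC box bound by Sp factors (GGGCGG) had 1 match at -190. The TATA box (TATAAA), the core of the tonicity element bound by Nfat5 (TGGAAA) and the forkhead core (TGTTTAC) had no match in these letters.

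None of the matched motifs was rare among promoters or among the aquaporins. Of 32851 promoter windows of this length, 52.0% held CACCC and 32.7% held GGGCGG. Of the 8 members with a window, 7 held CACCC (all but Aqp9), and Aqp1, Aqp3 and Aqp5 held GGGCGG. The tonicity core was found in 18.6% of windows, among them those of Aqp7 and Aqp9. The TATA box was found in 12.4%, among them that of Aqp3, and the forkhead core in 3.17% and in no member. Letters that match a motif do not show that a factor binds there.

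None of the genes beside Aqp1 on chromosome 6 passed the test. Of the 3 nearest measured genes on each side, 0 of 6 were called, and their differences were 0.03 for Crhr2, 0.08 for Inmt, 0.22 for Mindy4, 0.13 for Ghrhr, 0.16 for Adcyap1r1 and 0.05 for Neurod6 on the log2 scale. The largest of these, that of Mindy4, had an adjusted p of 0.302 in limma.

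Among the 9 members, 1 was higher in differentiation (Aqp1) and 0 were lower, with 2 past an unadjusted p of 0.05 (Aqp1 and Aqp3). Over all 19938 genes, 2.94% were higher and 2.97% lower at the adjusted threshold, and their share at the unadjusted cut is not given here. The differentiation arrays lay wholly above the proliferation arrays for 1 member (Aqp1) and wholly below for 1 (Aqp3). The same held for 14.6% of all genes above and 12.9% below. The median difference was 0.12 on the log2 scale over the 9 members and 0.02 over all genes.

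Aqp3, an aquaglyceroporin of the basolateral membrane of many epithelia and of skin, was the only member whose differentiation values all lay below those in proliferation. It had log2 values of 5.65, 5.50 and 6.00 in differentiation, against 6.09, 6.09 and 6.01 in proliferation. The groups were separated by 0.0089, so that differentiation replicate 3 all but reached the lowest proliferation array. The difference was -0.35 (95% interval -0.67 to -0.03), with an unadjusted p of 0.0375 and an adjusted p of 0.274 in limma, and did not pass the test.

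Aqp7 and Aqp9 are the aquaglyceroporins best known for letting glycerol out of adipocytes and into hepatocytes. Aqp7 had values of 5.42, 5.19 and 5.48 in differentiation, against 5.34, 5.10 and 5.03 in proliferation. Aqp9 had values of 4.80, 4.63 and 4.76 in differentiation, against 4.63, 4.47 and 4.42 in proliferation. The groups of Aqp7 overlapped, and those of Aqp9 met at 4.63. The differences were 0.21 for Aqp7 (95% interval -0.08 to 0.49) and 0.22 for Aqp9 (-0.00 to 0.45), with adjusted p of 0.497 and 0.322 in limma. Aqp3 thus differed in sign from the other aquaglyceroporins, with no difference past the test.

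Aqp4 is the main water channel of the astrocytes of the brain, where it gathers at the end-feet on vessels. In enterospheres its values were 4.99, 4.84 and 4.89 in differentiation and 4.83, 4.87 and 4.81 in proliferation, and the groups overlapped. The difference of 0.07 had a 95% interval of -0.12 to 0.26 (adjusted p = 0.754 in limma). All 6 values were below the median cluster mean of 6.15. Because probes differ in brightness, a value below that median gives no absolute level and does not show that a transcript was absent, and no member's level is set against another's here.

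Aqp2, the channel that vasopressin moves to the surface of kidney collecting duct cells, had values of 6.49, 6.30 and 6.88 in differentiation, against 6.63, 6.27 and 6.41 in proliferation. The groups overlapped in part, with differentiation replicate 3 above all proliferation arrays and proliferation replicate 2 just below all differentiation arrays. The difference of 0.12 (95% interval -0.29 to 0.52, adjusted p = 0.815 in limma) had the widest interval among the water channels. It turned to -0.045 when differentiation replicate 3 was left out. Aqp5, known from salivary and lacrimal glands, differed by 0.12 (95% interval -0.11 to 0.35), and Aqp8, known from pancreas, liver and colon, by 0.08 (-0.11 to 0.26). Their means in differentiation and in proliferation were 6.46 ± 0.11 and 6.34 ± 0.10 for Aqp5, and 5.09 ± 0.02 and 5.01 ± 0.07 for Aqp8 (SD, n = 3 arrays each).

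Aqp11 is an intracellular aquaporin of the endoplasmic reticulum whose loss in mice gives polycystic kidneys. Its values were 5.47, 5.36 and 5.67 in differentiation and 5.93, 5.35 and 5.81 in proliferation. Proliferation replicate 2 lay just below all 3 differentiation arrays, so that the groups overlapped although the difference was -0.20 (95% interval -0.60 to 0.20, adjusted p = 0.662 in limma).

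The precision of these comparisons can be read from their intervals. Over the 8 members other than Aqp1, the 95% intervals reached from -0.67 to 0.52, which bounds the differences of the array values, not those of the transcripts. Of the 8, 6 had all their values below the median cluster mean, where array signal near background can compress a difference. The SD of the 8 within a group was 0.02 to 0.31, beside a median of 0.11 over all genes. Weighting the arrays by quality gave differentiation replicate 1 a weight of 7.45, proliferation replicate 3 a weight of 3.62 and the other 4 arrays 0.397 to 0.491. With these weights 5 more members passed the test, namely Aqp3 at -0.37, Aqp5 at 0.23, Aqp7 at 0.34, Aqp9 at 0.34 and Aqp11 at -0.30 (adjusted p = 0.00878, 0.0249, 0.0108, 0.00547 and 0.0361 in limma). Calls over all clusters rose as well, from 693 higher and 766 lower without weights to 7315 and 5406 with them. Passing in this setting was therefore not particular to the aquaporins.

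Within each group, the 8 members also shared shifts between arrays. Differentiation replicate 2 was the lowest of its group in 7 of the 8, differentiation replicate 3 the highest in 5, and proliferation replicate 1 the highest of its group in 6. The same shifts were seen in the 5095 genes with means between 4.62 and 6.50. Their median deviation from the group mean was 0.01, -0.10 and 0.09 on differentiation replicates 1, 2 and 3, against 0.08, -0.04 and -0.04 on the proliferation replicates. For the 8 aquaporins these medians were 0.02, -0.12 and 0.07 in differentiation, against 0.11, -0.07 and -0.03 in proliferation. The medians over all clusters were 6.185, 6.172 and 6.146 on differentiation replicates 1, 2 and 3, so replicate 3 was the lowest there. On the proliferation replicates they were 6.160, 6.115 and 6.124.

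The family genes Mip, Aqp6 and Aqp12 did not pass the test either. Mip, the water channel of the lens, differed by 0.11, the intracellular Aqp6 of the kidney by -0.04 and Aqp12 of the pancreas by -0.00 (adjusted p = 0.588, 0.919 and 0.991 in limma). Aqp2, Aqp5 and Aqp6 lie next to each other on chromosome 15, as do Aqp3 and Aqp7 on chromosome 4.

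**Figure D2:**
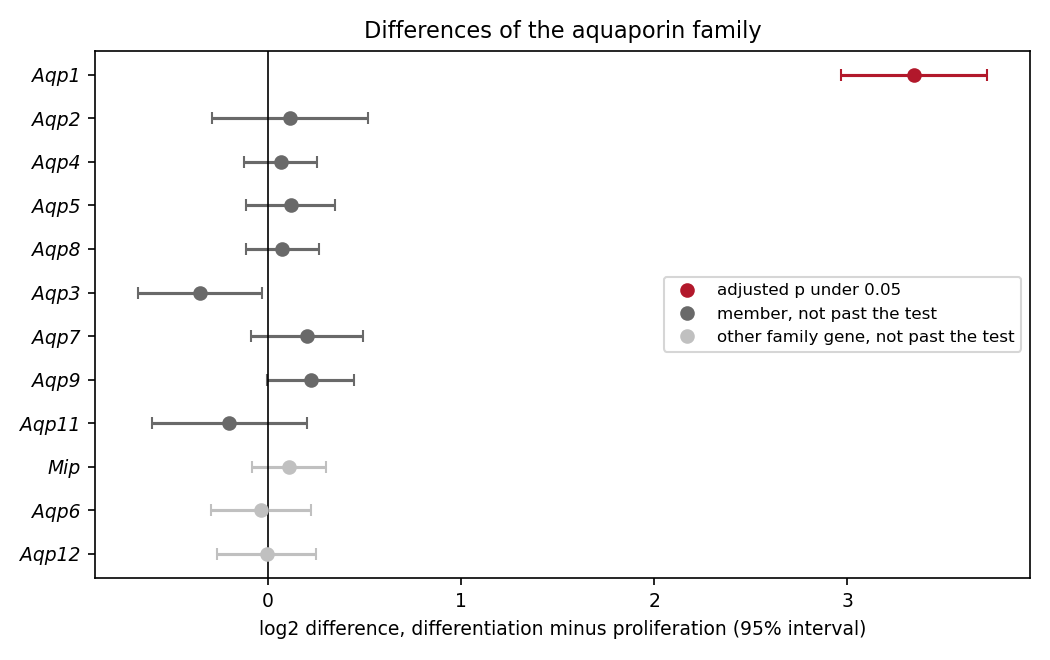
Difference in log2 value, differentiation minus proliferation (horizontal axis), of the 9 aquaporins and of the family genes Mip, Aqp6 and Aqp12, with bars for the 95% interval of the limma fit. Aqp1 stands alone at 3.35, and the intervals of all others but Aqp3 include 0.

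Genes with a profile like that of Aqp1 were sought by the distance between values centred on each gene's own mean, over the 6 arrays. The 8 nearest were Casq2, Lgals3, Arsi, Gpnmb, Enpp6, Met, Mustn1 and Col14a1, at distances of 0.517, 0.609, 0.781, 0.872, 0.965, 1.02, 1.02 and 1.05 on the log2 scale. All of them were high in differentiation, which the measure itself requires, and their differences were a description with no test. Casq2, the calcium-binding protein calsequestrin of the sarcoplasmic reticulum of heart muscle, had values of 8.72, 8.76 and 8.79 in differentiation, against 5.57, 5.36 and 5.76 in proliferation. Lgals3, galectin-3, had values of 11.32, 11.17 and 11.29 in differentiation, against 7.40, 7.75 and 7.79 in proliferation. Casq2 was highest on differentiation replicate 3, as Aqp1 was, but by far less, while Lgals3 was highest on differentiation replicate 1.

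The others had differences between 2.62 and 2.95. Arsi, a sulfatase, differed by 2.95 and Mustn1, a nuclear protein of muscle and skeleton, by 2.90. Gpnmb, a membrane glycoprotein of melanosomes and lysosomes, differed by 2.73 and Enpp6, a choline phosphodiesterase of young oligodendrocytes in the brain, by 2.64. Met, the receptor for hepatocyte growth factor, differed by 2.74 and Col14a1, a collagen of fibrils, by 2.62. With 6 arrays in 2 groups, likeness of this kind reflects chiefly the difference between the groups.

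**Figure D3:**
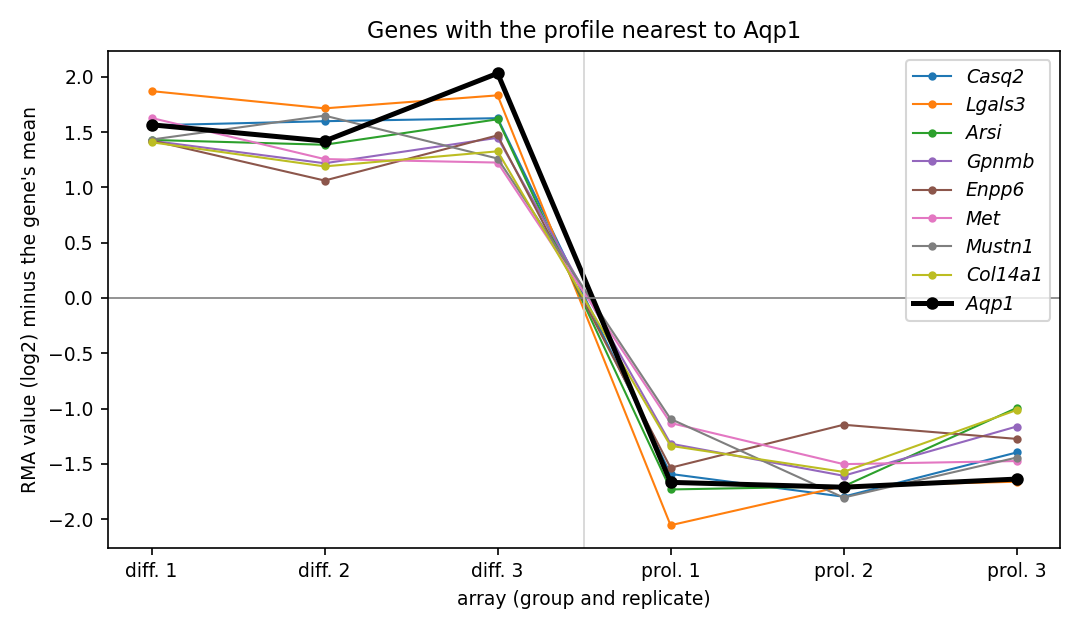
Log2 value minus the gene's own mean (vertical axis) on the 3 differentiation arrays and the 3 proliferation arrays (horizontal axis) for Aqp1 in black and the 8 genes nearest to it. The lines only join the points of a gene. Aqp1 is higher on differentiation replicate 3 than on the other differentiation arrays. By less, so are some others, such as Arsi (10.23, against 10.04 and 10.00 before centring).

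Cells known to carry Aqp1 were looked for through their markers. None of the 8 endothelial markers (Pecam1, Cdh5 and others) passed the test, 6 of 8 had means below the median cluster mean, and their mean log2 level was 5.78 to 5.93 on the differentiation arrays and 5.72 to 5.93 on the proliferation arrays. Likewise 0 of 3 measured markers of red blood cells passed, with mean levels of 5.64 to 5.91 in differentiation and 5.66 to 5.94 in proliferation. None of 6 mesothelial, 8 gut epithelial, 5 adipocyte and 7 macrophage markers passed either. The largest increase of any marker in the 10 lists was 1.44, that of Tagln in smooth muscle.

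Enterospheres are labelled as enteric nervous system. The measured markers of enteric glia and of neurons all had means above the median cluster mean, and so did those of fibroblasts. Such means give no absolute level. Of 6 glial markers, Gfap rose by 1.16 and S100b fell by 0.74, and the other 4 did not pass. The differentiation arrays lay wholly above the proliferation arrays for 5 of the 6 and wholly below for 1, beside 14.6% and 12.9% of all genes. The median difference of the list was 0.33. The mean level of the 6 was 10.5 to 10.7 in differentiation and 10.2 to 10.5 in proliferation. Of 6 neuronal markers Tubb3 rose by 0.98, and their mean level was 10.7 to 10.8 in differentiation and 10.3 to 10.7 in proliferation. Smooth muscle had the most changes, with 4 of 7 markers higher (Tagln by 1.44, Actg2 by 1.22, Acta2 by 0.76, Cnn1 by 0.72) and Smtn lower by 0.83. Its mean level was 7.67 to 7.81 in differentiation and 7.16 to 7.21 in proliferation. Among 6 fibroblast markers Dpt rose by 1.20, with mean levels of 10.3 to 10.5 in differentiation and 9.92 to 10.6 in proliferation. Some glial, neuronal and muscle markers are among the genes the study itself picked on these samples and are no independent evidence. The part of these cell types in the difference of Aqp1 was not tested.

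Several of these marker calls were lost when 1 array was left out. Calls over all clusters also fell then, from 693 higher and 766 lower to at most 587 and 710. Tagln, Actg2 and Dpt passed with any array left out (adjusted p at most 0.0407, 0.0334 and 0.0337 in limma). Smtn did not pass without differentiation replicate 1 (0.0819), and Cnn1 without that array or proliferation replicate 3 (0.0522 to 0.0636). Gfap, Acta2, S100b and Tubb3 were each lost without any of 4 arrays, differentiation replicates 1 and 3 among them, with adjusted p between 0.0547 and 0.128.

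**Figure D4:**
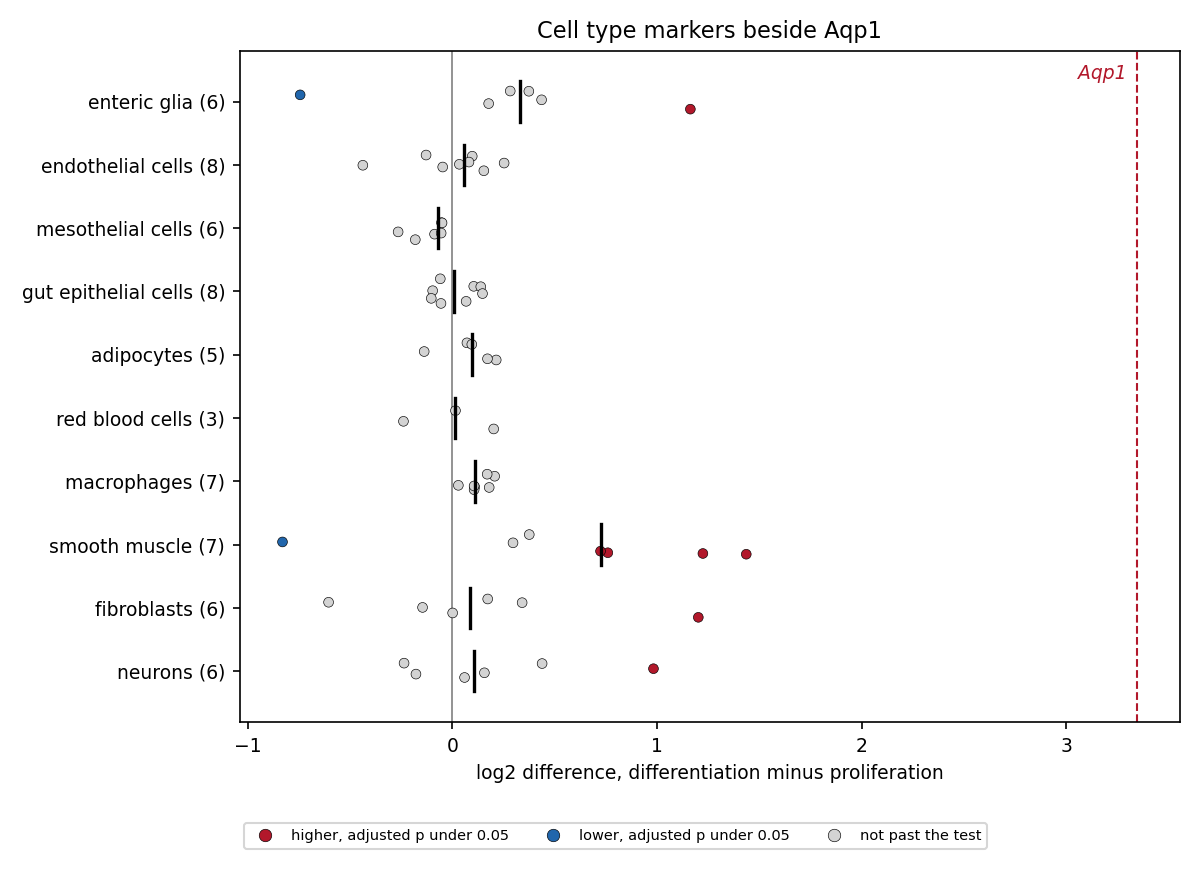
Difference in log2 value, differentiation minus proliferation (horizontal axis), of markers of 10 cell types, 1 point per gene, with the number of measured markers in brackets, a black bar for the median of the list and a dashed line for Aqp1 at 3.35. The farthest marker is Tagln at 1.44, and the endothelial, mesothelial, epithelial, adipocyte, red blood cell and macrophage lists hold no point past the test.

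Aquaporins act together with proteins that anchor them, move them or carry ions and solutes beside them. Such partners were taken as 7 lists of 77 genes, of which 68 were measured. Of these, 7 were higher in differentiation (10.3%) and 3 lower (4.41%), beside the 2.94% and 2.97% of all genes given above, and their median difference was 0.08. The count moved when single arrays were left out, and so did calls over all clusters (693 higher and 766 lower with all arrays). With differentiation replicate 1 left out, 1 partner gene was higher and 0 lower, beside 165 and 129 clusters. With proliferation replicate 3 left out, 2 partner genes were higher and 1 lower, beside 241 and 239 clusters. Leaving out differentiation replicate 3 gave 4 partner genes higher and 1 lower, beside 454 and 396 clusters. For differentiation replicate 2 the partner counts were 3 and 2, beside 294 and 389 clusters. For proliferation replicate 2 they were 4 and 4, beside 524 and 689 clusters. Leaving out proliferation replicate 1 kept 7 partner genes higher and 2 lower, beside 587 and 710 clusters.

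Among the genes of glycerol release and use, 2 were higher and 1 lower in differentiation. Mgll, the lipase that frees glycerol from monoglycerides, had log2 values of 9.21, 9.08 and 9.16 in differentiation, against 8.17, 7.97 and 8.22 in proliferation. It rose by 1.03 (SE 0.10, adjusted p = 0.00455 in limma) and passed with any array left out. Gpd1, the cytosolic enzyme that makes glycerol 3-phosphate, had values of 7.57, 7.73 and 7.82 in differentiation, against 9.08, 9.98 and 9.54 in proliferation. It fell by 1.83 (SE 0.22, adjusted p = 0.00808), and differed by -1.76 with an adjusted p of 0.0547 when differentiation replicate 1 was left out. Plin2, which coats lipid droplets, rose by 0.73 (adjusted p = 0.012), and missed the threshold without differentiation replicate 1 or proliferation replicate 3 (0.0670 to 0.0710). The other 6 of the 9 measured genes of the list did not pass, and the aquaglyceroporins themselves did not either.

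Of the genes that move Aqp2, Mal rose and Prkar2b fell among 11 measured. Mal, a membrane protein of apical transport and of myelin that binds Aqp2 in the kidney, had values of 8.61, 8.01 and 9.00 in differentiation, against 6.35, 6.69 and 6.94 in proliferation. The groups were far apart, and the rise of 1.88 (SE 0.27, adjusted p = 0.0139 in limma) was the largest of any partner gene, although it missed the threshold without differentiation replicate 1 (0.0766). Prkar2b, a regulatory subunit of protein kinase A, fell by 0.82 (adjusted p = 0.0286), a call lost without any 1 of 5 arrays, all but proliferation replicate 2 (0.0778 to 0.137). The vasopressin receptor Avpr2, chosen after its value was seen, differed by 0.01.

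Of 10 measured genes of the complex that holds Aqp4 at the membrane and of glial water balance, Utrn (utrophin) rose by 0.66 and Dtna (alpha-dystrobrevin) by 0.48 (adjusted p = 0.0165 and 0.0433 in limma). The call of Utrn was lost without differentiation replicate 1, differentiation replicate 2 or proliferation replicate 3 (0.0649 to 0.0971), and that of Dtna without any 1 of the 6 arrays (0.0535 to 0.170). The median of the list was -0.06. The differentiation arrays lay wholly above the proliferation arrays for 2 of its genes and wholly below for 5, beside 14.6% and 12.9% of all genes. Kcnj10, the glial potassium channel found beside Aqp4 in astrocytes, is named after its values were seen. It had 7.31, 7.14 and 7.43 in differentiation, against 7.96, 9.79 and 8.97 in proliferation, a wide spread in proliferation, and its difference of -1.61 did not pass (adjusted p = 0.101).

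Of the ion transporters, 3 passed the test. Slc12a2, the sodium-potassium-chloride cotransporter that takes up ions in cell volume control, fell by 0.64 (adjusted p = 0.0254 in limma), 1 call among 9 measured genes of cell volume. It was lost without differentiation replicate 1 or 3 or proliferation replicate 1 or 3 (0.0706 to 0.122). Lrrc8e of the same list, named after its values were seen, differed by 1.11 and did not pass (adjusted p = 0.0571 in limma). In this list the differentiation arrays lay wholly above for 3 genes and wholly below for 1, beside 14.6% and 12.9% of all genes. The bicarbonate transporters Slc4a4 and Slc4a2 rose by 0.61 and 0.37 (adjusted p = 0.036 and 0.0473), 2 of 10 measured genes of epithelial ion transport, and both calls were lost without any 1 of the 6 arrays (0.0505 to 0.184).

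The genes of osmosensing gave 0 calls among 11 measured, with 5 at an unadjusted p under 0.05 and a median of 0.14. The share of all genes at that unadjusted cut is not given here, so such counts have no background beside them. Named after their values were seen, Sgk1, a kinase induced by osmotic and hormonal signals, differed by 0.72 (adjusted p = 0.0508 in limma), and Slc6a6, the taurine transporter, by 0.61 (0.0606). In the list of other MIP, urea and Rh channels 0 of 8 passed, with 1 at an unadjusted p under 0.05, the urea channel Slc14a1. It had values of 5.97, 6.50 and 6.10 in differentiation, against 8.09, 6.23 and 8.28 in proliferation. Proliferation replicate 2 stood apart from the other proliferation arrays and within the range of the differentiation arrays, and the difference of -1.35 had an adjusted p of 0.272.

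**Figure D5:**
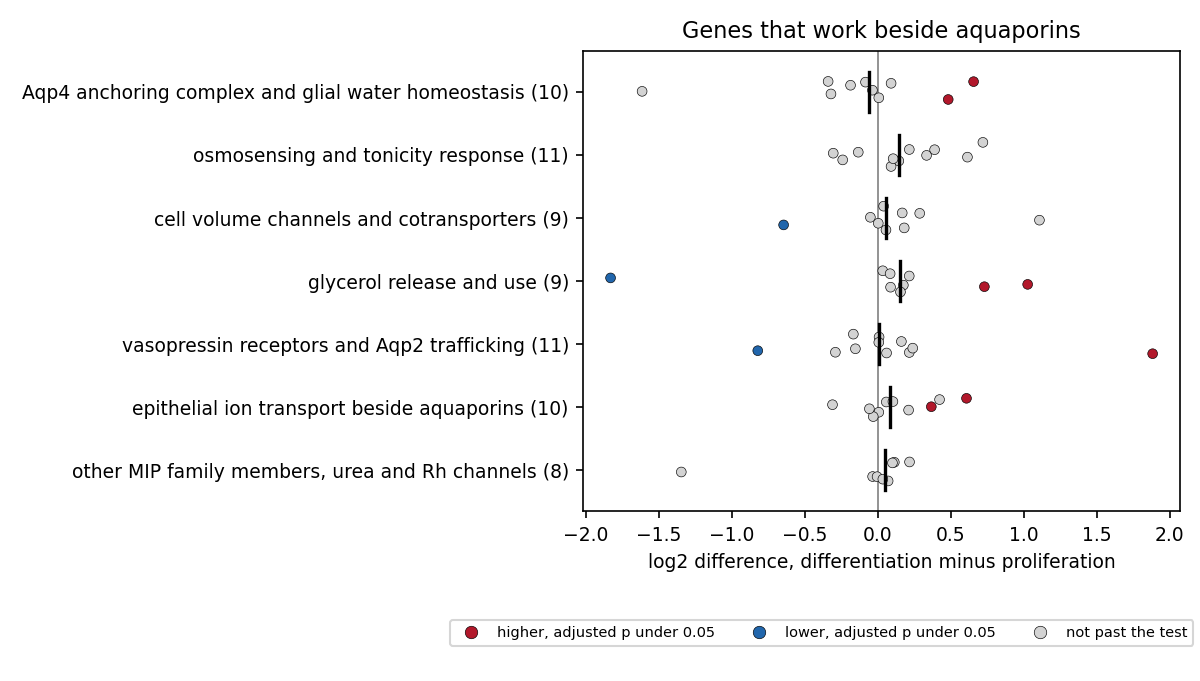
Difference in log2 value, differentiation minus proliferation (horizontal axis), of 68 measured partner genes in 7 lists, 1 point per gene, with the number measured in brackets and a black bar for the median of the list. Red points mark 7 genes higher and blue points 3 genes lower at an adjusted p under 0.05, from Gpd1 at -1.83 to Mal at 1.88.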

How the data were processed

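The arrays were GeneChip Mouse Gene ST arrays. Per the methods of the study, the authors scanned them with AGCC, made quality reports in Expression Console and applied RMA in Partek Software. The deposited table holds log2 values, 1 per transcript cluster and array. RMA as usually run equalises the distributions of the arrays, so a shift common to most transcripts would not be seen. Genome build and annotation version: not given in the sources used here. Array values carry no counts, and the number of arrays limits the precision.

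Gene symbols came from the annotation table of the platform: 21789 clusters had 1 symbol, 1621 several and 12146 none, and only clusters with 1 symbol named a gene. A gene with several was represented by its brightest cluster, by the mean of the 6 arrays. Groups came from the labels. Differentiation was compared with proliferation by lmFit and eBayes of limma 3.58.1 in R 4.3.3, with the group as single term, a two-sided test, no filter and p adjusted by Benjamini-Hochberg over 35556 clusters, and a gene was called where its adjusted p was under 0.05, whatever its fold. An exact permutation test of 3 against 3 arrays cannot go below p = 0.1, and none was run. Tables and plots were made with pandas 2.3.3 and matplotlib 3.10.9 in Python 3.11.15. The fit was tested on simulated data.

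Named genes were the members, in each partner list up to 3 called genes with the largest difference, and the 8 genes nearest to Aqp1. Markers, chromosome neighbours and genes marked in the text were named outside that rule. The members, lists and alternatives were chosen with earlier results of these data known. Promoter windows came from RefSeq (GRCm38.p6). Other motifs had been looked at before the 5 given and are not reported. The alternatives tried were a replicate block, trend with robust estimation, cyclic loess, median centring, a restriction to clusters whose mean reached the median cluster mean, array weights, averaging of a gene's clusters, the methods' t-test at its thresholds and after Benjamini-Hochberg, and leaving out each array.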

Additional observations from a re-analysis of the deposited data

How the results depend on the processing

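The difference of Aqp1 kept its direction and stayed past the threshold in all 15 alternatives (adjusted p from 1.18e-05 to 0.0362, and 9.29e-04 to 0.0126 with each array left out). For the other 8 members, 108 of 114 alternative values kept direction and side of the threshold. Some alternatives, such as the replicate block and the t-test, leave the difference unchanged, so their direction was fixed in advance. The t-test at its thresholds and after Benjamini-Hochberg was 1 test with the same p-values, so the alternatives are not independent checks. Array weights made 5 more pass (4 aquaporins higher, 2 lower in all), and leaving out differentiation replicate 3 turned Aqp2 to -0.045, the low end of a range up to 0.25 with each array left out. Restricting the fit to clusters whose mean reached the median cluster mean removed 6 members. The cause of these changes was not tested.

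The counts of calls moved more. In the main comparison 7 partner genes were higher and 3 lower, and 693 of all clusters were higher and 766 lower. Array weights gave 25 and 12 partner genes and 7315 and 5406 clusters. The methods' t-test after Benjamini-Hochberg gave 3 and 0 partner genes and 175 and 78 clusters. Trend with robust estimation gave 12 and 3 partner genes and 855 and 928 clusters. The restriction on cluster means kept 49 partner genes and 17778 clusters, and gave 13 and 4 partner genes and 990 and 1122 clusters. With each array left out, partner genes higher ranged from 1 to 7 and lower from 0 to 4, and clusters higher from 165 to 587 and lower from 129 to 710.

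With the replicate number as a block, Aqp1 still passed (adjusted p = 0.00824), while 2 partner genes were higher and 1 lower, and 285 clusters were higher and 379 lower. Among the markers, Cnn1, Smtn and Tubb3 no longer passed (adjusted p = 0.0629, 0.0662 and 0.0568), and of the partner calls only those of Mgll, Gpd1 and Mal did. The deviations of same-numbered samples correlated at -0.00, 0.09 and -0.07, so these data do not show that the numbers pair the samples, and no differentiation sample correlated best with the proliferation sample of its own number. Signal below the median cluster mean limits what can be said of 6 of the 9 members. Aqp1 in proliferation lay not far above it. The same was true of the means of Aqp2 (6.56 in differentiation, 6.44 in proliferation) and Aqp5 (6.46 and 6.34), so this limit may hold for them too.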
